A study of Homo sapiens with 6 samples.

Results

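The insulin-like growth factor (IGF) system was examined at the mRNA level in RCC4, a line of human kidney cancer cells of the clear cell type without functional VHL. The genes were 10 named members: the 7 IGF-binding proteins IGFBP1 to IGFBP7, the ligand IGF2 and the receptor genes IGF1R and INSR. All 10 matched 1 Ensembl identifier each among the 60683 in the count table. RNA sequencing had been performed on parental RCC4 cells, labelled wild type (n = 3), and on RCC4 cells labelled as an ATF4 knockout (n = 3), with no treatment named for either group. ATF4 is a transcription factor of the integrated stress response, and the comparison asks which transcripts differ between cells with and without it. The means of the knockout, its status as 1 clone or a pool, and the origin of the 3 samples of a group from separate or shared cultures are not stated. The p-values therefore reflect sample-to-sample spread that may be technical, and ATF4 loss cannot be told apart from other differences between the parental and the knockout line.

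IGF1 and IGF2 act through IGF1R, a receptor tyrosine kinase, while insulin acts mainly through its close relative INSR, and each receptor recruits IRS docking proteins that switch on PI3K, AKT and mTOR and hold FOXO transcription factors out of the nucleus. The IGF-binding proteins are secreted carriers that bind the ligands, extend their lifetime and control their access to the receptors, and IGFBP7 is a relative that binds IGFs weakly. In clear cell renal carcinoma the loss of VHL stabilizes hypoxia-inducible factors, and IGFBP3 is among the transcripts known to be abundant in these tumors.

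Total counts were between 41002611 and 46755358 per sample, so a count of 0 allows up to 0.0634 to 0.0729 CPM (reads per gene scaled to a common library size), taken as 3 counts and covering counting error only. Pairs within a group gave a chi-square per degree of freedom of 3.59 to 5.80, where sampling noise alone gives about 1, and pairs across groups 37.9 to 44.1, so none was counted as a duplicate. The label of the cells was checked against 12 markers of renal epithelium and clear cell carcinoma, of which 11 were detected and 1, EMX2, stayed under 20 counts in every sample. Their summed level was 7019 to 7424 CPM in parental and 7808 to 7987 CPM in knockout samples. VIM made up the largest part of it, at 4808 ± 163 CPM in parental and 5166 ± 111 CPM in knockout samples. Single markers moved in both directions, with CA9 at 2.55 on the log2 scale (16.6 to 96.9 CPM) and EPAS1 at -0.48 (183 to 131 CPM). All 4 immune and all 4 endothelial markers stayed under 20 counts in every sample, as did 3 of 5 fibroblast markers (COL1A2, DCN and LUM) and 3 of 4 hepatocyte markers (ALB, APOA1 and TTR). The fibroblast list summed to 58.5 to 72.7 CPM in parental and 51.1 to 51.7 CPM in knockout samples, and the hepatocyte list to 13.2 to 14.5 and 11.7 to 13.0 CPM. Their detected markers were COL1A1 (57.6 ± 6.90 to 46.6 ± 0.0777 CPM), PDGFRB (10.1 ± 1.15 to 4.84 ± 0.273 CPM) and SERPINA1 (13.9 ± 0.656 to 12.2 ± 0.689 CPM), all called lower.

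ATF4 mRNA was present in every knockout sample. It stood at 239, 251 and 243 CPM in the parental samples and at 209.8, 223 and 209 CPM in the knockout samples, so the groups did not overlap. The log2 fold change of knockout over parental was -0.19 (SE 0.029, edgeR adjusted p = 3.19e-07). Among the 25 tested genes on each side of ATF4 (chromosome 22) the median was -0.25, and with that median removed ATF4 stood at 0.05 (edgeR adjusted p = 0.147). Gene counts do not show whether the reading frame of ATF4 was disrupted, so they neither check nor contradict the labels.

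Of the 10 genes, 5 carried enough counts to be tested and 5 did not. IGFBP3, IGFBP6, IGFBP7, IGF1R and INSR passed the filter on low counts. IGFBP1 and IGFBP4 had 0 counts in all 6 samples, and IGFBP2, IGFBP5 and IGF2 had at most 15 counts in any sample. All 5 tested genes passed the test at an adjusted p under 0.05, with 2 higher (IGFBP3 and IGF1R) and 3 lower (IGFBP6, IGFBP7 and INSR) in the knockout cells, and none of the 5 changed by 2-fold or more. Over all 15321 tested genes 42.0% were called, 21.2% higher and 20.8% lower, and 2.84% were both called and changed at least 2-fold. Among the 4434 genes whose mean reached 50 CPM, where all 5 tested members lie, 60.8% were called, so most well expressed genes passed the same test. The median log2 fold change of the 5 tested genes was -0.16, beside 0.01 over all tested genes. The share of all tested genes whose groups do not overlap was not counted. Lack of overlap is therefore given below only as a description of single genes.

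**Figure D1:**
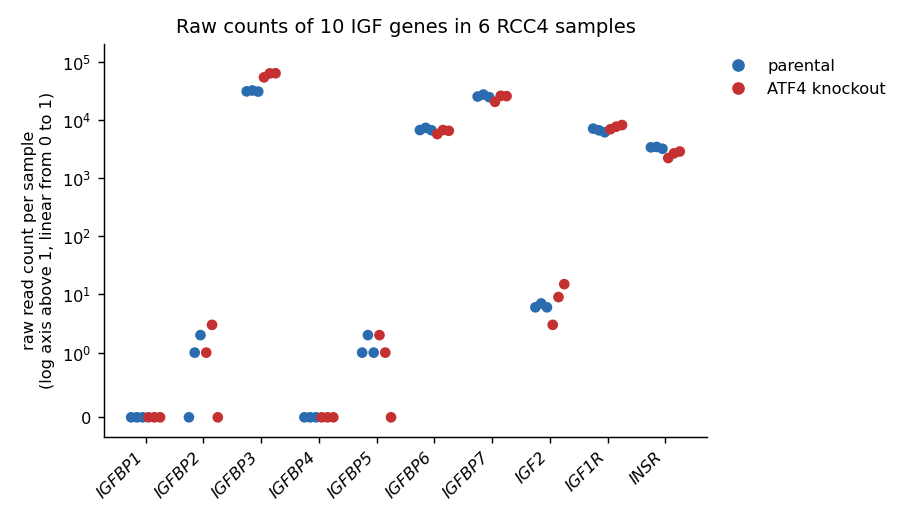
Raw read counts of the 10 IGF genes, 1 point per sample (blue, parental, n = 3; red, ATF4 knockout, n = 3), on an axis that is logarithmic above 1 and linear from 0 to 1. The 5 tested genes lie at 2200 counts or more in every sample, IGFBP2, IGFBP5 and IGF2 lie at 15 counts or below, and IGFBP1 and IGFBP4 lie at 0.

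The sequences before the RefSeq starts of IGFBP3, IGF1R and INSR are shown, to give their base composition and motif content. These are the tested members whose windows hold at most 2 bases of their annotated exons. Each window holds the 250 bases before the RefSeq start (GRCh38.p14), 5′ to 3′ on the strand of the gene. They are chr7:45921273-45921522 (minus strand) for IGFBP3, of which 2 bases fall in a GENCODE 29 exon, chr15:98648289-98648538 (plus strand) for IGF1R and chr19:7294415-7294664 (minus strand) for INSR. RefSeq and GENCODE 29 place the starts of IGFBP3 and INSR differently. The IGFBP3 window lies within the GENCODE 29 span of the gene, which ends at 45921874. The INSR window does not adjoin its GENCODE 29 span, which ends at 7294034. Capitals mark a match to ACGTG, the core of the hypoxia response element, on either strand.
IGFBP3: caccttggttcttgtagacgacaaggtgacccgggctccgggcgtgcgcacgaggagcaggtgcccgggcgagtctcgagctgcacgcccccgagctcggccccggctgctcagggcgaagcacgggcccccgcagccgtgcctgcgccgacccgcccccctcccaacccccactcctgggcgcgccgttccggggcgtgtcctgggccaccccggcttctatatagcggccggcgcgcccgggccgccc
IGF1R: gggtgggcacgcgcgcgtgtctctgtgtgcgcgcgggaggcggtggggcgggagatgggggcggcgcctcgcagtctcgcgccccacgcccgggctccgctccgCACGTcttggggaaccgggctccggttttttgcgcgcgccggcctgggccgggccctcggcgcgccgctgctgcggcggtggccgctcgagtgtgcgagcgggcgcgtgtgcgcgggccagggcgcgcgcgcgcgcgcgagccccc
INSR: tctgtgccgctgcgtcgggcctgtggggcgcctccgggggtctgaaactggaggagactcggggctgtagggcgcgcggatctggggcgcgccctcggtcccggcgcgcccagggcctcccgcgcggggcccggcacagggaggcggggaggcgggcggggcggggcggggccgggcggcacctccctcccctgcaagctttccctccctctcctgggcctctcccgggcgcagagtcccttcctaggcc
All 3 were rich in G and C, at 76% for IGFBP3, 81.2% for IGF1R and 78.4% for INSR, where the median of 35116 promoter windows was 58% with quartiles of 46.4% and 68%. They held 32, 48 and 28 CG dinucleotides, where the median window held 11. ACGTG was found in 18.5% of all windows and, of these 3, in that of IGF1R, as CACGT on the shown strand with its first base 146 bases before the start. The C/EBP-ATF element, TGATGNAA, was found in 3.14% of all windows and in none of the 3, and the forkhead letters GTAAACA in 2.98% and the shorter AAACA in 40.4%, again in none of the 3. RefSeq windows were also read for IGFBP4 and IGFBP5, which held none of the 4 motifs, and for IGFBP6, which held GTAAACA with its first base 186 bases before the start and AAACA within it. The window of IRS2, a docking protein described with the pathway, held AAACA once, as TGTTT with its first base 40 bases before the start, and none of the other motifs. Of the IGFBP6 window, 231 bases lie in GENCODE 29 exons of the gene. No window was used for IGFBP1, IGFBP2, IGFBP7 and IGF2.

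IGFBP3, the main carrier of IGFs in serum, showed the largest change of the 5 tested genes. It stood at 706, 723 and 723 CPM in the parental samples and at 1299, 1346 and 1329 CPM in the knockout samples. Every knockout sample lay far above every parental one, and replicates of either group lay within a few percent of each other. The mean rose from 717 ± 9.66 to 1325 ± 23.9 CPM (SD, n = 3 each), which is 1.85-fold and a log2 fold change of 0.89 (SE 0.028, edgeR adjusted p = 4.44e-33). Of all tested genes, 4.35% changed by more in either direction. Among the 4434 genes with at least 50 CPM, 8 had a larger log2 fold change than IGFBP3. The gene lies on the minus strand of chr7:45912245-45921874 (GRCh38, as are the other positions), 18.6 kb from IGFBP1 (chr7:45888357-45893668, plus strand). IGFBP1, a carrier best known from the liver that is acutely regulated by insulin, had 0 counts in all 6 samples, so this neighboring family member was not detected at this depth in either group.

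IGFBP7, which is secreted and also found in the matrix around cells, was the most abundant of the family per exon length in the parental cells. It stood at 575, 615 and 579.8 CPM in the parental samples and at 494, 554 and 538 CPM in the knockout samples. The groups did not overlap, although the gap between them, from 554 to 575 CPM, was smaller than the range within either group. The mean fell from 590.1 ± 21.7 to 529 ± 31.2 CPM, a log2 fold change of -0.16 (SE 0.036, edgeR adjusted p = 0.00101). The gene lies on the minus strand of chr4:57030773-57110385. At its 3′ end it shares 270 exon bases (13.99% of its exon bases) with POLR2B on the opposite strand, and POLR2B was higher in the knockout cells, at 0.14 on the log2 scale (SE 0.033, edgeR adjusted p = 5.38e-04). The strand setting used in counting is not given in the sources used here, and the part of this overlap in the IGFBP7 value was not tested.

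IGFBP6, a binding protein that prefers IGF2 over IGF1, was lower by a similar amount. It stood at 153, 165 and 157 CPM in the parental samples and at 138, 143 and 136 CPM in the knockout samples. The highest knockout sample lay below the lowest parental one. The mean fell from 158 ± 6.19 to 139 ± 3.49 CPM, a log2 fold change of -0.18 (SE 0.031, edgeR adjusted p = 1.90e-06). The gene lies on the plus strand of chr12:53097436-53102345. Changes of this size were common over all tested genes, which include genes at low counts: 44.9% changed by more than IGFBP6 and 50.6% by more than IGFBP7 in either direction. Of the 4434 genes with at least 50 CPM, 707 had a smaller log2 fold change than IGFBP6 and 832 a smaller one than IGFBP7.

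The remaining family members were at or near 0. IGFBP4 (chr17:40443461-40457731, plus strand) had no count in any sample. IGFBP2 (chr2:216632828-216664436, plus strand) had 0, 1 and 2 counts in the parental and 1, 3 and 0 in the knockout samples. IGFBP5 (chr2:216672105-216695525, minus strand), which lies beside IGFBP2, had 1, 2 and 1 counts in the parental and 2, 1 and 0 in the knockout samples. IGFBP4 and IGFBP5 are known substrates of the protease PAPPA, and IGFBP2 is a carrier abundant in several other tumors. The groups overlapped for all 3 of these genes, and a difference between them was not detectable at this depth.

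**Figure D2:**
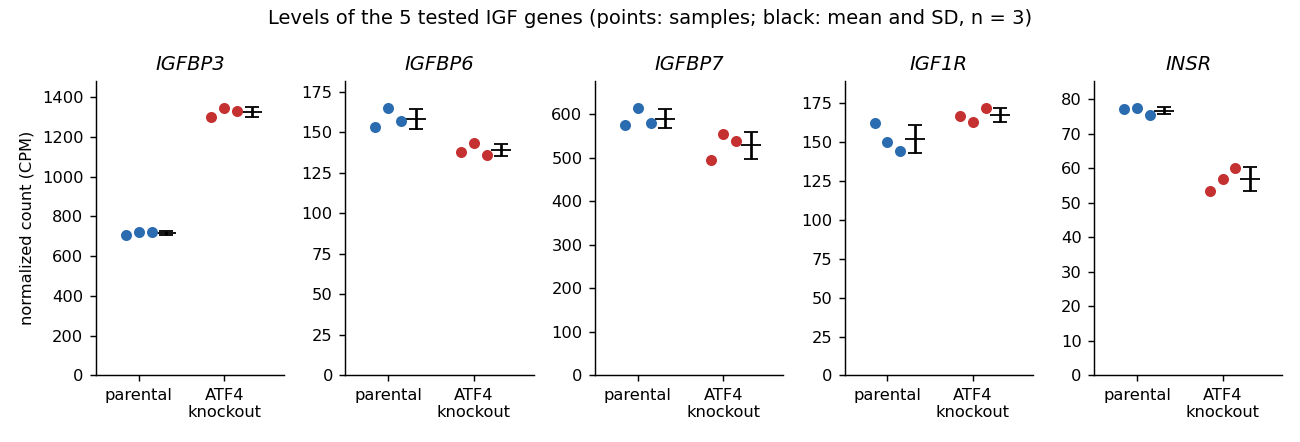
Normalized counts (CPM after TMM scaling) of the 5 tested genes, 1 panel per gene with its own axis from 0, 1 point per sample, and the mean with its SD in black (n = 3 per group). The groups are far apart for IGFBP3 (717 against 1325 CPM) and INSR (76.7 against 56.9 CPM) and close for IGF1R, IGFBP6 and IGFBP7.

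To compare genes with each other, CPM was divided by exon length (RPKM). The family mRNA came almost wholly from IGFBP3, IGFBP6 and IGFBP7, and its makeup differed between the groups. IGFBP7 made up 52.7%, 53.2% and 52.2% of the summed IGFBP level in parental samples and 39.8%, 41.7% and 41.5% in knockout samples. IGFBP3 made up 27.3%, 26.4% and 27.5% in the parental and 44.2%, 42.8% and 43.3% in the knockout samples. IGFBP6 made up 20.1%, 20.5% and 20.3% in the parental and 15.9%, 15.5% and 15.1% in the knockout samples. For each of the 3 genes the shares did not overlap between the groups, and the differences were many times the SD within a group, which was at most 1.05 percentage points. No test was run on the shares, which add up to a whole and so do not move independently. The summed level of the family rose from 580.2 ± 17.2 to 667 ± 23.0 RPKM in means, with no overlap between the groups.

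Per exon length, the order of the members by level changed at its head. In the parental cells it was IGFBP7 (306 ± 11.2 RPKM), IGFBP3 (157 ± 2.11), IGFBP6 (118 ± 4.60), IGF1R (10.9 ± 0.636) and INSR (7.34 ± 0.108). In the knockout cells IGFBP3 (289.8 ± 5.24 RPKM) stood beside IGFBP7 (274 ± 16.2), a gap smaller than the SD of IGFBP7, ahead of IGFBP6 (103 ± 2.59), IGF1R (12.0 ± 0.290) and INSR (5.44 ± 0.320). The ratio of IGFBP3 to IGFBP7 was 0.518, 0.496 and 0.526 in parental samples and 1.11, 1.03 and 1.04 in knockout samples, below 1 in the former and above 1 in the latter. Without division by exon length this change of order is not seen, since IGFBP3 had the larger share in both groups, 48.9% against 40.3% for IGFBP7 in parental and 66.5% against 26.5% in knockout samples. IGFBP7 over IGFBP6, by contrast, was 2.63, 2.60 and 2.58 in the parental and 2.50, 2.70 and 2.75 in the knockout samples, and these ranges overlapped. The binding proteins were among the most abundant transcripts of these cells over all samples: of 15214 tested genes with an exon length, 97 had a higher mean RPKM than IGFBP7, 129 a higher one than IGFBP3 and 296 a higher one than IGFBP6, against 3829 for IGF1R and 5921 for INSR.

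**Figure D3:**
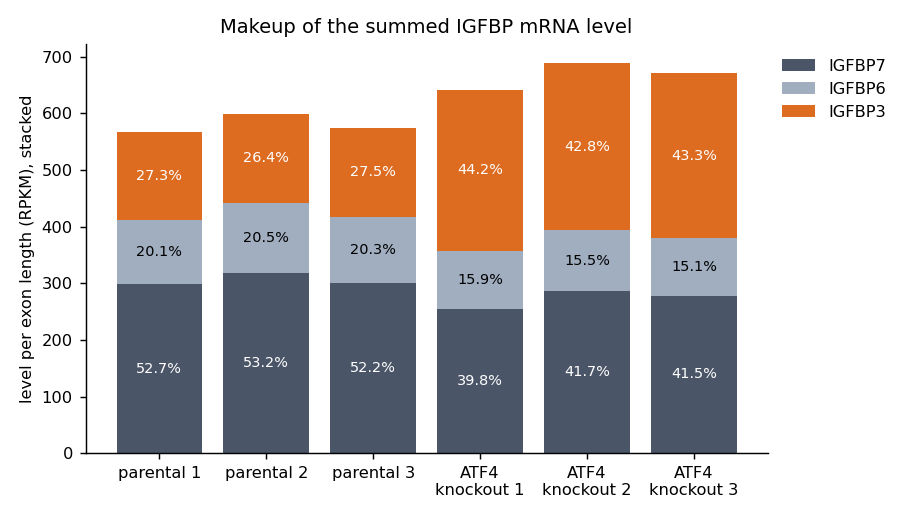
Summed level of the IGF-binding proteins per exon length (RPKM), 1 stacked bar per sample from 0, with the share of each gene in percent. IGFBP3 takes 26.4% to 27.5% of the bar in the parental samples and 42.8% to 44.2% in the knockout samples, while the height rises from 566 to 599 RPKM to 642 to 688 RPKM.

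The ligands were at or near 0 in both groups. IGF2, the fetal growth factor whose maternal copy is silenced by imprinting, had 6, 7 and 6 counts in the parental and 3, 9 and 15 in the knockout samples, that is 0.138, 0.159 and 0.142 against 0.0729, 0.194 and 0.317 CPM. The knockout samples lay on both sides of the parental ones, and IGF2 was not tested. Of its exon bases (chr11:2129112-2149603, minus strand), 73.71% are shared on the same strand with another identifier of the same symbol and 20.92% with INS-IGF2, and both of these had 0 counts in every sample. Counting that leaves out reads shared by overlapping genes would lower all of them, so the IGF2 level is uncertain. IGF1 had 1 count in 1 parental sample and none elsewhere, and INS had no counts.

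INSR, the insulin receptor, was lower in the knockout cells, and IGF1R slightly higher. INSR stood at 77.2, 77.5 and 75.4 CPM in the parental samples and at 53.5, 57.0 and 60.2 CPM in the knockout samples, with a wide gap between the groups. Its mean fell from 76.7 ± 1.13 to 56.9 ± 3.35 CPM, to 0.742 of the parental level, a log2 fold change of -0.43 (SE 0.040, edgeR adjusted p = 2.48e-13). Of the 4434 genes with at least 50 CPM, 114 had a smaller log2 fold change than INSR, and 17.1% of all tested genes changed by more in either direction. The gene lies on the minus strand of chr19:7112255-7294034.

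IGF1R (chr15:98648539-98964530, plus strand) stood at 162, 149.7 and 144 CPM in the parental samples and at 167, 163 and 172 CPM in the knockout samples. The groups were separated by less than the spread within either of them, with 1 parental sample close to the lowest knockout sample. The mean was 152 ± 8.87 CPM in parental and 167 ± 4.04 CPM in knockout samples, a log2 fold change of 0.14 (SE 0.033, edgeR adjusted p = 5.79e-04). The 25 tested genes on each side of IGF1R had a median of 0.05, and with it removed the change was 0.08 and was no longer called (edgeR adjusted p = 0.0674). The ratio of IGF1R to INSR per exon length was 1.57, 1.45 and 1.44 in the parental and 2.34, 2.15 and 2.14 in the knockout samples, higher in every knockout sample. IGF2R, which binds IGF2 and carries it to the lysosome without signaling through a kinase, fell from 508 ± 15.5 to 455 ± 9.94 CPM (log2 fold change -0.16, SE 0.028, edgeR adjusted p = 5.41e-06) and was the most abundant of the receptors per exon length, at 28.4 RPKM in parental and 25.5 RPKM in knockout samples. The related receptor INSRR had no counts.

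Other genes of the pathway were followed through 84 genes in 11 lists, of which 67 were tested, 15 were higher, 18 were lower and 34 did not pass. Their median log2 fold change was -0.03. Over all tested genes the median was 0.01, with 21.2% called higher and 20.8% called lower.

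Proteins that carry an IGFBP domain without being classical carriers were split. Of 13, 8 were tested, 2 were higher (CCN3 and CRIM1), 2 lower (CCN5 and HTRA1) and 4 not called. CCN5, a matricellular protein also known as WISP2, stood at 17.0, 20.4 and 18.8 CPM in the parental and 7.20, 7.87 and 8.78 CPM in the knockout samples (log2 fold change -1.23, SE 0.083, edgeR adjusted p = 1.62e-18). Its relative CCN3 went the other way, from 15.5, 17.2 and 15.4 CPM to 23.9, 24.7 and 23.5 CPM (0.59, SE 0.063, edgeR adjusted p = 2.34e-11). Neither pair of groups overlapped. CRIM1, a transmembrane protein that binds BMPs, was higher by 0.15 and HTRA1, a secreted serine protease, stood at -0.12. CCN1, the most abundant gene of the list per exon length (601 RPKM in parental samples), at 1475 ± 37.5 CPM in parental and 1449.8 ± 30.8 CPM in knockout samples, was not called (edgeR adjusted p = 0.521), nor were CCN2, KAZALD1 and HTRA3.

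Among the proteases that cleave IGF-binding proteins and their inhibitors, ADAM12, a membrane metalloprotease reported to cleave IGFBP3 and IGFBP5, was also higher. It stood at 146, 147 and 147 CPM in the parental and 213, 211 and 222 CPM in the knockout samples, with no overlap (log2 fold change 0.55, SE 0.029, edgeR adjusted p = 4.53e-23). STC2, an inhibitor of PAPPA, fell from 315 ± 4.71 to 279 ± 2.06 CPM (-0.17, SE 0.027, edgeR adjusted p = 4.61e-07). STC1, its relative, was called higher at 0.25 (edgeR adjusted p = 0.0473), but its groups overlapped and the call was lost with DESeq2 (adjusted p = 0.106) and with the replicate block (edgeR adjusted p = 0.0541). PAPPA itself was near 0, at 0.366 ± 0.203 CPM in parental and 0.492 ± 0.130 CPM in knockout samples, and was not called. IGFALS, which joins IGFBP3 and an IGF in the serum complex, had no counts, and PAPPA2 had at most 12 counts in a sample and was not tested. Thus 4 of 6 were tested, with 2 higher, 1 lower and 1 not called.

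Of the docking proteins and adaptors, 9 of 10 were tested, 3 were higher (SHC1, GRB2 and GRB14), 2 lower (IRS2 and GRB10) and 4 not called. IRS2, which couples both receptors to PI3K, stood at 110.4, 104 and 104 CPM in the parental and 64.0, 63.6 and 60.8 CPM in the knockout samples. Every knockout sample lay well below every parental one, and the mean fell from 106 ± 3.86 to 62.8 ± 1.74 CPM (log2 fold change -0.75, SE 0.036, edgeR adjusted p = 1.20e-24). IRS1, its relative, was at 34.5 ± 2.23 CPM in parental and 31.9 ± 1.58 CPM in knockout samples and was not called (-0.11, edgeR adjusted p = 0.0942). Without parental sample 2 (-0.16, edgeR adjusted p = 0.0197) or knockout sample 3 (-0.15, edgeR adjusted p = 0.0355) IRS1 was called lower. The ratio of IRS1 to IRS2 per exon length went from 0.263, 0.252 and 0.284 to 0.392, 0.404 and 0.453, with no overlap. GRB10, an adaptor that restrains both receptors, fell from 108 ± 2.22 to 86.9 ± 1.91 CPM (-0.31, SE 0.034, edgeR adjusted p = 1.80e-11), while GRB14, a related inhibitor of INSR, was higher at 0.38 (9.93 ± 0.742 against 12.9 ± 1.91 CPM, edgeR adjusted p = 6.26e-04). SHC1 and GRB2, which lead to RAS, were higher by 0.19 and 0.18. GRB2 lost its call with the median of its neighboring genes removed (0.00, edgeR adjusted p = 0.995).

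In the PI3K-AKT arm 12 of 13 genes were tested, 5 were higher, 1 was lower and 6 were not called. PIK3R3, a regulatory subunit of PI3K at a low level, was higher at 3.33, 2.56 and 3.26 CPM in the knockout against 1.50, 1.91 and 2.07 CPM in the parental samples (log2 fold change 0.74, SE 0.169, edgeR adjusted p = 2.88e-04). The other higher genes changed less: RICTOR, a subunit of mTOR complex 2, by 0.28, the catalytic subunit PIK3CB by 0.14, MTOR by 0.14 and AKT1 by 0.11. PIK3R1, the main regulatory subunit, fell by 0.22 on the log2 scale (31.4 ± 0.660 to 26.9 ± 0.373 CPM, edgeR adjusted p = 4.94e-04). With the median of the neighboring genes removed, RICTOR (0.06) and AKT1 (-0.02) were no longer called. AKT2, PIK3CA, PIK3CD, PDPK1 and RHEB were among those that did not pass the test. PIK3R2 had 4 counts or fewer in each sample, and 87.25% of its exon bases are shared on the same strand with another identifier, so its level is uncertain.

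All 14 genes that restrain the pathway were tested, 1 was higher (GSK3B), 5 were lower (PTPN1, SOCS3, INPPL1, ENPP1 and PIK3IP1) and 8 were not called. None changed by as much as 0.5 on the log2 scale among those called. PTPN1, the phosphatase that acts on INSR and IGF1R, was lower by the smallest p of the list (125 ± 1.84 to 107 ± 1.15 CPM, log2 fold change -0.23, edgeR adjusted p = 1.77e-08). The 25 tested genes on each side of PTPN1 had a median of -0.21, and with it removed PTPN1 stood at -0.03 and was not called (edgeR adjusted p = 0.440). SOCS3, a cytokine-induced inhibitor, followed at -0.13 (119 ± 4.59 to 109 ± 5.30 CPM, edgeR adjusted p = 0.00127). With the same correction GSK3B, ENPP1 and PIK3IP1 were no longer called and INPPL1 was called higher (0.10, edgeR adjusted p = 0.0195).

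At the end of the pathway, FOXO1 was lower (8.36 ± 1.08 to 6.70 ± 0.144 CPM, log2 fold change -0.32, SE 0.102, edgeR adjusted p = 0.00877), while FOXO3 and FOXO4 were not called. The FOXO1 call rested on parental sample 1, the highest of the 6 at 9.52 CPM, and without it the change was -0.21 (edgeR adjusted p = 0.129). Of 13 listed FOXO target genes, 11 were tested, 1 was higher and 4 were lower. With the median of the neighboring genes removed, 2 were higher and 6 lower. The higher one without that correction was PDK4, a kinase that turns off pyruvate dehydrogenase, at 1.89, 2.71 and 2.94 CPM in the parental and 5.15, 4.26 and 4.95 CPM in the knockout samples (0.93, SE 0.146, edgeR adjusted p = 4.65e-07). FBXO32, the ubiquitin ligase atrogin-1, went the other way, at 77.0, 79.2 and 79.8 CPM against 52.5, 53.3 and 58.8 CPM (-0.52, SE 0.041, edgeR adjusted p = 6.40e-16). CITED2 (-0.33), the repressor BCL6 (-0.23) and the apoptosis gene BCL2L11 (-0.21) were also lower, of which BCL2L11 lost its call without parental sample 3 (-0.18, edgeR adjusted p = 0.0642) or knockout sample 1 (-0.18, edgeR adjusted p = 0.0654).

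**Figure D4:**
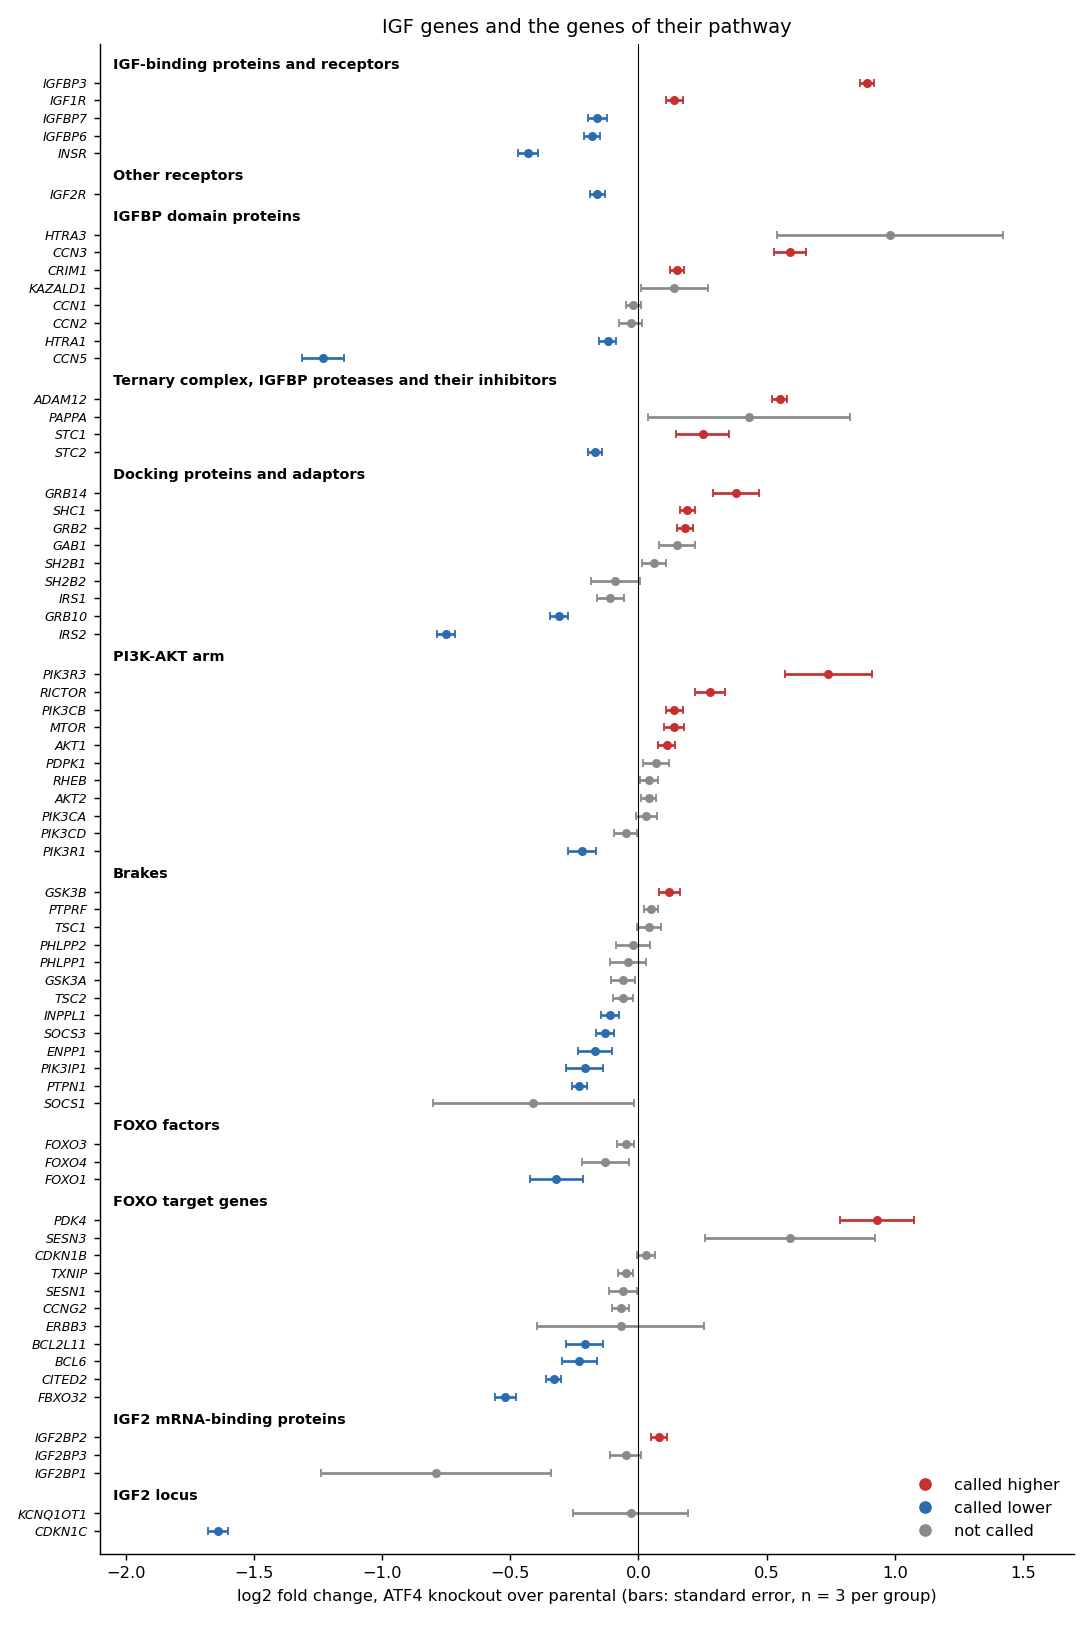
Log2 fold change of ATF4 knockout over parental for the 5 tested members and 65 tested genes of the pathway lists, with bars of 1 standard error (n = 3 per group), red for called higher, blue for called lower and gray for not called. IGFBP3 (0.89) and PDK4 (0.93) lie farthest right among the called genes, CDKN1C (-1.64) and CCN5 (-1.23) farthest left.

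The genes that handle IGF2 mRNA and genes of the imprinted region around IGF2 complete the lists. Of the 3 IGF2 mRNA-binding proteins, IGF2BP2 was called higher by a small amount (0.08, edgeR adjusted p = 0.0368), a call that was lost with DESeq2 (adjusted p = 0.0860), while IGF2BP3 was not called. IGF2BP1 was low, at 0.363 ± 0.0175 CPM in parental and 0.210 ± 0.0720 CPM in knockout samples, and was not called (edgeR adjusted p = 0.155). Of 5 genes listed under the IGF2 locus, 2 were tested, CDKN1C (chr11:2883213-2885773) and KCNQ1OT1 (chr11:2608328-2699994). Both lie apart from IGF2 (chr11:2129112-2149603), so their values do not describe the IGF2 gene itself. CDKN1C, an imprinted inhibitor of cyclin-dependent kinases, stood at 134, 133 and 123 CPM in the parental and 41.1, 42.7 and 41.8 CPM in the knockout samples. Every knockout sample lay far below every parental one (log2 fold change -1.64, SE 0.038, edgeR adjusted p = 7.60e-40), and the 25 tested genes on each side had a median of -0.23. KCNQ1OT1, the antisense RNA of the same domain, was not called (-0.03, edgeR adjusted p = 0.927). H19 had 4 counts or fewer in each sample, and IGF2-AS and INS-IGF2 had none.

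Regional differences between the lines were measured because the median log2 fold change was not the same on all chromosomes, from -0.28 on chromosome 22 to 0.09 on chromosome 17. The medians of the 25 tested genes on each side of the tested members were small, at -0.03 for IGFBP3, -0.04 for IGFBP6, 0.07 for IGFBP7, 0.05 for IGF1R and -0.04 for INSR. With them removed, IGFBP3 stood at 0.91, INSR, IGFBP6 and IGFBP7 stayed called lower, and of the 5 members the call of IGF1R alone was lost.

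**Figure D5:**
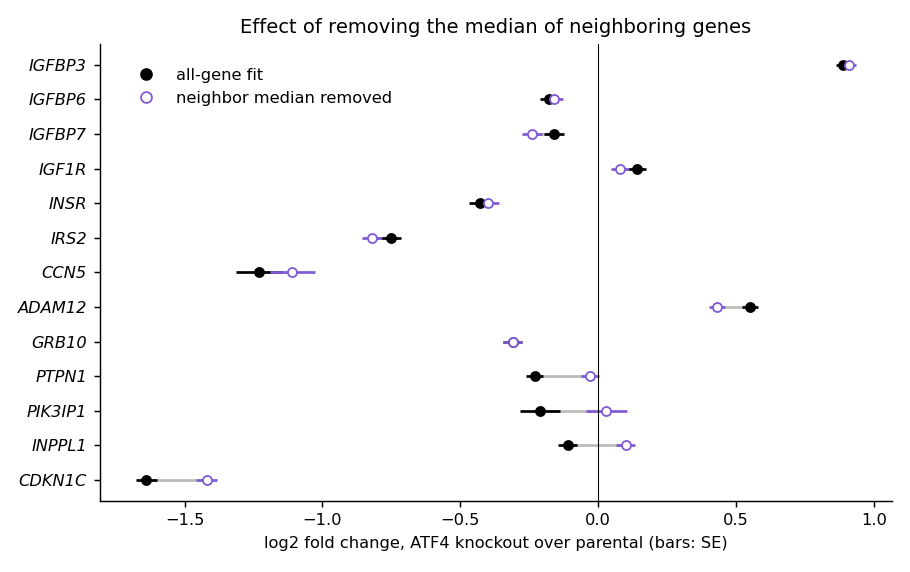
Log2 fold change of ATF4 knockout over parental with bars of 1 standard error, from the fit over all genes (filled) and with the median of the 25 tested genes on each side removed (open), for the 5 tested members and 8 genes of the pathway. The 2 values nearly coincide for IGFBP3 (0.89 and 0.91), while PTPN1 moves from -0.23 to -0.03.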

How the data were processed

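According to the labels, RCC4 RNA was made into stranded mRNA libraries. The submitters' processing notes name bcl2fastq 2.20, cutadapt, STAR, HTSeq and GRCh38. Their other versions, the annotation release and the strand setting were not given in the sources used here. The table deposited by the authors holds raw counts of reads per Ensembl gene, with no normalization.

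Samples were grouped by their labels. Of 60683 identifiers, 60370 had a symbol in a table of gene names and 58496 had coordinates and exon lengths in GENCODE 29, which may differ from the annotation used for counting. In R 4.3.3, genes kept by filterByExpr (15321) were scaled by TMM and tested with edgeR 4.0.16 (quasi-likelihood F test, robust, no replicate term). Adjustment over the 15321 genes followed Benjamini and Hochberg, and a gene was called at an adjusted p under 0.05. Fold changes are knockout over parental on the log2 scale with their standard error (SE), and CPM is after TMM scaling. RPKM is CPM per kilobase of merged exons. For the regional setting, the median log2 fold change of the 25 tested genes on each side was removed through the offset. The other alternatives were DESeq2 1.42.0, RLE factors, total counts alone, no filter, a filter of at least 1 CPM in 3 samples, a replicate block and each sample left out. The gene test was tested on simulated data.

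The members and lists were chosen with earlier results of these data known. Named genes are the 10 members, ATF4, called pathway genes with an absolute log2 fold change of at least 0.5, the 2 with the smallest p where a list has none, the nearest tested protein-coding gene on each side of a member, and the genes of any count of 5 or fewer. Of the pathway lists, 2 genes are counted but not reported here. Any other gene named was chosen with its values in view. Promoter windows were from RefSeq (GRCh38.p14). No protein sequence was used here.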

Additional observations from a re-analysis of the deposited data

How the results depend on the processing

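All 5 tested members kept their direction under all 13 alternatives, and 64 of their 65 values kept their call. The exception was IGF1R (0.08, edgeR adjusted p = 0.0674) with the neighbor median removed, which left 1 member called higher. The log2 fold change ranged over the alternatives from 0.87 to 0.91 for IGFBP3, 0.08 to 0.19 for IGF1R, -0.47 to -0.39 for INSR, -0.21 to -0.15 for IGFBP6 and -0.24 to -0.12 for IGFBP7. Among the genes followed singly, with the neighbor median removed the direction turned for ATF4 (0.05), GRB2 (0.00), AKT1 (-0.02), INPPL1 (0.10), PIK3IP1 (0.03) and FOXO3 (0.01), and IRS1 (-0.16, edgeR adjusted p = 0.0120) was called. Of the other pathway genes, 36 were followed singly under the alternatives (the 33 called, and FOXO3, IGF2BP1 and IRS1). Of their values 425 were unchanged in call and direction, 34 kept the direction but lost the call, 3 gained it and 5 turned. The gains were all of IRS1, with the neighbor median removed, without parental sample 2 and without knockout sample 3. Of those that turned, GRB2, AKT1 and PIK3IP1 also lost the call. Uncalled genes outside these 36 were followed only through the list counts, where some gained a call: FOXO targets went to 2 higher and 6 lower with the neighbor median removed, and brakes to 3 higher with total counts alone. Without a single sample the whole-table count of calls was 5594 to 6102, with 416 to 509 at least 2-fold, and the pathway had 12 to 16 genes higher and 16 to 20 lower. The call of STC1 (0.15 to 0.23) was lost without parental sample 1 or 2 or knockout sample 1 or 2, that of IGF2BP2 (0.05 to 0.08) without parental sample 1 or 2 or knockout sample 1 or 3, and that of ENPP1 (-0.18 to -0.13) without any 1 parental sample or knockout sample 2. The call of GSK3B (0.08 and 0.09) was lost without parental sample 2 or knockout sample 3, that of PIK3IP1 (-0.15 and -0.17) without sample 2 of either group, that of BCL2L11 (-0.18) without parental sample 3 or knockout sample 1, that of INPPL1 (-0.09) without knockout sample 1 and that of FOXO1 (-0.21) without parental sample 1. Genes changed at least 2-fold numbered 195 under the stricter filter, which tests fewer low genes, against 435. Same-numbered samples did not deviate together (r = -0.0277, 0.00630 and -0.0155), so no pairing by number was seen. The labels do not say whether a number marks a shared culture or day. The replicate block gave 6405 calls, 425 of them at least 2-fold, with the members unchanged at 2 higher and 3 lower. Without division by exon length the share of IGFBP3 was 48.9% in parental and 66.5% in knockout samples. With 3 samples a group and 1 line per genotype, line differences and ATF4 loss cannot be told apart.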

Other observations

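The nearest tested protein-coding genes on the sides of the members gave no common direction. Several of them are distant: CENPC lies 10358 kb from IGFBP7, TNS3 1353 kb from IGFBP3, TNS1 1104 kb from IGFBP5 and ARRDC4 675 kb from IGF1R. Beside the IGFBP1 and IGFBP3 pair, ADCY1, an adenylyl cyclase, rose at a low level from 0.784 ± 0.205 to 1.58 ± 0.323 CPM (log2 fold change 1.00, SE 0.248, edgeR adjusted p = 7.20e-04), while TNS3, a focal adhesion protein, was lower at -0.28 (229 ± 5.24 to 189 ± 1.60 CPM, edgeR adjusted p = 6.02e-12). Beside the IGFBP2 and IGFBP5 pair, which was near 0, RPL37A was at 1044 ± 34.2 CPM in parental and 1067 ± 28.9 CPM in knockout samples and was not called, and TNS1 was lower at -0.18. IGFBP4, with no counts, lies 25.5 kb from TOP2A, the topoisomerase of dividing cells, which was higher at 0.83 (113 ± 13.1 to 201 ± 4.60 CPM, edgeR adjusted p = 0.00208). SPRYD3 beside IGFBP6 was higher at 0.15 and SOAT2, 1.17 kb away on the other side, was not called. ARRDC4 beside IGF1R was higher at 0.23, MRPL23 beside IGF2 was higher at 0.28, and ZNF557 and ARHGEF18 on the sides of INSR were not called, nor were SYNM, CENPC, C11orf21 and SMARCE1.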
